A study of Mus musculus with 79 samples.

Results

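The FGF (fibroblast growth factor) ligands described here are 8 genes, Fgf3, Fgf1, Fgf2, Fgf7, Fgf9, Fgf11, Fgf12 and Fgf13, followed in the mouse dorsal root ganglion before and after crush of the sciatic nerve. They were taken by symbol from a table of read counts for 24033 genes, which holds 22 FGF symbols in all, and they were chosen by name with the rise of Fgf3 in pulled-down RNA already known, the one measured value recorded behind the choice. For that reason the values of all 8 genes in pulled-down RNA against naive, and of Fgf3 in pulled-down against whole RNA, are given as a description with no test. The tests below use the whole-ganglion libraries, which may come from the same ganglia, and, for the other 7 genes, the comparison of the 2 kinds of RNA. All 8 genes passed the filter on low counts in every fit. Fgf3 passed it through the later groups, with 15 counts in the 7 naive Input libraries and 1974 in the 4 of 7 d. Its tests in Input are therefore not independent of that filter.

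The tissue was the L4 and L5 ganglia, which hold the cell bodies of sensory neurons of the sciatic nerve, of BAC-TRAP BR145-GFP mice. Animals had both sciatic nerves crushed and were sampled 1 h, 12 h, 24 h, 48 h, 72 h or 7 d later, or were naive, and every group carried the GFP transgene. The labels name neither the cells that carry the tag nor the animal behind a library, so the p-values rest on spread between libraries that may be technical. In BAC-TRAP mice GFP tags ribosomes: the IP libraries hold what an anti-GFP antibody raised in chicken captured, and the Input libraries the ganglion's total RNA. The naive group had 7 libraries of each kind, the 1 h group 5, the 12 h group 6, the 48 h group 6, the 72 h group 7 and the 7 d group 4, while the 24 h group had 4 IP and 5 Input libraries, which makes 39 IP and 40 Input libraries.

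Secreted FGFs bind tyrosine kinase receptors together with heparan sulphate chains on cell surface proteins such as syndecans and glypicans, and the signal runs through the adaptor Frs2 to the Ras and MAP kinase pathway. That pathway switches on its own inhibitors, the Sprouty and Spred proteins and the phosphatase Dusp6, and transcription factors of the Etv group. Fgf3 and Fgf7 are ligands known chiefly from embryonic patterning and from epithelial repair, Fgf1 and Fgf2 lack a classical signal peptide, and Fgf9 is a ligand made by neurons and other cells. Fgf11, Fgf12 and Fgf13, with Fgf14, are the FGF homologous factors, which stay inside the cell, and Fgf12, Fgf13 and Fgf14 bind voltage-gated sodium channels. In sensory neurons Fgf13 is known as a partner of Scn9a and Scn8a.

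IP libraries held 3614942 to 16721527 gene counts and Input libraries 8737964 to 22221882. The ribosomal features Rn45s and Lars2 (the second counted for a stretch that resembles rRNA) made up 1.369% to 75.103% of the counts in IP and 1.645% to 25.475% in Input, and 6 IP libraries (2 each at 1 h, 12 h and 48 h) were over 50%. Atf3, the standard marker of an injured sensory neuron, checked the crush: its log2 change at 48 h was 5.25 ± 0.37 (SE) in IP and 5.93 ± 0.17 in Input, and at 1 h it was -0.48 ± 0.40 and 0.50 ± 0.16. All 10 neuronal markers had counts in every group. In naive ganglia 1 neuronal marker was higher and 6 were lower in IP than in Input, while 5 of 7 myelin markers were higher in IP and 0 lower. The median log2 difference of the 10 neuronal markers was -0.47, against 0.26 for all genes.

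Of the 8 genes, the 2 that rose in Input at 24 h, 48 h, 72 h and 7 d were Fgf3, on chromosome 7, and Fgf11, on chromosome 11. The 250 bases before a start site of each (RefSeq, GRCm38.p6, 5′ to 3′ on the gene's strand) are shown for this pair because both rose, with the longest uninterrupted run of C and T in capitals; for Fgf3 2 runs tie at 26 bases. They lie at chr7:144838362-144838611 on the plus strand and chr11:69802281-69802530 on the minus strand. The Fgf3 window ends where the annotated gene begins, whereas the Fgf11 window lies inside the gene's annotated span and so precedes an internal start site.
Fgf3: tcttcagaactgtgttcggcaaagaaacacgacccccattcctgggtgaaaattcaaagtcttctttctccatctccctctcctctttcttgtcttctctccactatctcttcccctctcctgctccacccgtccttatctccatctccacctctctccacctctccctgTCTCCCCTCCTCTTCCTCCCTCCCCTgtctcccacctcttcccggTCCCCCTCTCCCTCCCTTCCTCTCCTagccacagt
Fgf11: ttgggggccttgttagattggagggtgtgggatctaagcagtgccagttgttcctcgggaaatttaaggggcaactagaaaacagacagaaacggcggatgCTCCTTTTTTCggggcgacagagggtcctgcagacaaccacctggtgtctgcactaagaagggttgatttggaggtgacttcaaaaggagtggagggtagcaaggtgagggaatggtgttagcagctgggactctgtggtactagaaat
The Fgf3 window was 79.2% pyrimidine (C or T) on the printed strand, a share reached by 25 of 32851 RefSeq windows of this length (0.076%, median 50%), and a C and T run as long as 26 stood in 1.04% of windows. The Fgf11 window was 39.6% pyrimidine, and its longest such run had 11 bases, a length reached in 28.78% of windows. Both windows were searched on both strands for the AP-1 site TGANTCA, which stands in 6.749% of all windows, and for the cyclic AMP element TGACGTCA, which stands in 1.546% of them. They were also searched for the TATA box as TATAAA, present in 12.368% of windows, and for the GC box as GGGCGG, present in 32.742%. None of these stood in either window, which describes the letters only.

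Across the 7 times in Input, 6 of the 8 genes changed by edgeR's quasi-likelihood F-test of the 6 differences from naive (Benjamini-Hochberg adjusted over 16217 genes), against 68.5% of all genes tested. The smallest adjusted p was that of Fgf3 (3.5e-22), followed by Fgf9 (1.5e-09), Fgf1 (4.8e-09), Fgf11 (5.9e-09), Fgf12 (3.9e-07) and Fgf13 (5.6e-05). The Fgf3 value is not independent of the low-count filter, which Fgf3 passed through the later groups, and its rise in IP was known beforehand. Fgf7 (0.26) and Fgf2 (0.93) did not pass. Of the 48 comparisons of a gene with naive at 1 time, 19 passed, 12 of them higher and 7 lower than naive. The 12 include the calls of Fgf3, to which the same limit applies. All calls up to 24 h were rises, and falls came at 48 h and later: 3 rose and 0 fell at 1 h (4.8% of all genes rose and 5.46% fell), 1 rose at 12 h (3.1% and 1.89%), 2 rose at 24 h (7.26% and 4.29%), 2 rose and 2 fell at 48 h (18% and 18.1%), 2 rose and 4 fell at 72 h (12.2% and 11.2%), and 2 rose and 1 fell at 7 d (28.3% and 25.1%). The 3 calls at 1 h (Fgf1, Fgf9 and Fgf11) were each lost with the Xist minus Ddx3y covariate and with the glial marker covariate. The 12 h call, that of Fgf3, was lost with the first of these. At 72 h the median log2 change of the 8 genes was -0.41, against -0.01 for all genes. In a bulk sample fewer cells of a type and less RNA per cell cannot be told apart.

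**Figure D1:**
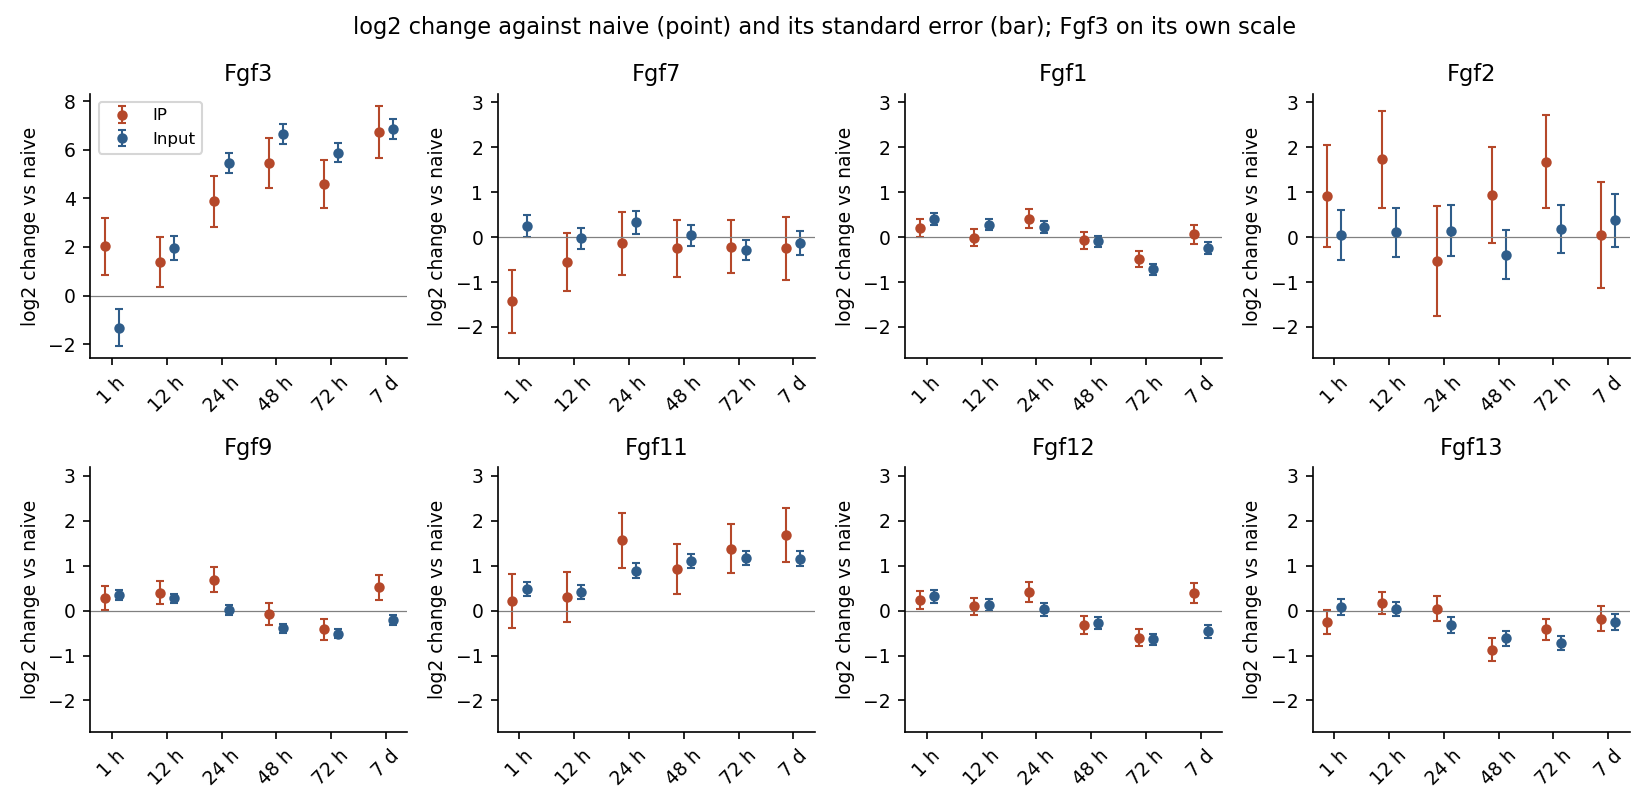
Log2 change against naive (y axis, fitted with edgeR, bars are standard errors) at each time after crush (x axis) for the 8 genes, IP beside Input; Fgf3 has its own scale. Fgf3 reaches 6.73 in IP and 6.84 in Input at 7 d, Fgf11 stays above 0 in both, and Fgf1, Fgf9, Fgf12 and Fgf13 lie lowest at 48 h or 72 h in Input.

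Fgf3, the ligand with the largest change, was near the detection limit in naive ganglia and rose steeply after 12 h. In Input it had 0, 0, 0.103, 0, 0.261, 0.696 and 0.343 CPM (gene reads scaled to a common library size with TMM factors) in the 7 naive libraries, 0.0894, 0.206, 0, 0 and 0 CPM at 1 h, and 0.330, 0.699 and 1.02 CPM as the lowest, median and highest library at 12 h. It then had 11.2, 8.75, 7.23, 4.71 and 7.27 CPM at 24 h, 11.4, 18.1 and 22.6 CPM (lowest, median, highest of 6) at 48 h, 7.15, 9.86 and 16.0 CPM (of 7) at 72 h, and 18.6, 21.5, 22.6 and 19.3 CPM at 7 d. From 24 h on every Input library lay above all 7 naive ones, and 72 h was lower than 48 h in its mean (10.6 ± 3.13 and 18.4 ± 4.09 CPM, SD), with ranges that overlap. The p-values of Fgf3 given here are not independent of the low-count filter. The log2 change against naive at 12 h was 1.96 ± 0.50 (SE; edgeR adjusted p = 0.014). At 24 h it was 5.44 ± 0.41 (4.5e-14), then 6.65 ± 0.40 after 48 h (1.1e-17), 5.88 ± 0.40 after 72 h (4.8e-16) and, largest of all, 6.84 ± 0.41 after 7 d (6.6e-18). At 1 h it was -1.33 ± 0.76 (0.24), from 3 libraries at 0 of 5. The 12 h call is lost without Input library 1 of 12 h, with the Xist minus Ddx3y covariate and in limma voom (adjusted p up to 0.069), while the later calls held in all 48 alternatives. At 12 h 0 of 6 Input libraries had more Xist than Ddx3y counts, against 5 of 7 naive ones.

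In IP the same gene had 0, 0.183, 0, 0, 0.351, 0 and 0.525 CPM in naive libraries, 0.0708, 3.38, 0, 0.255 and 0.285 CPM at 1 h, and 0, 1.16, 0.820, 0, 0 and 0 CPM at 12 h. It had 6.49, 0.188, 1.18 and 1.70 CPM at 24 h, 0.159, 10.1, 1.79, 11.8, 9.58 and 9.13 CPM at 48 h, 0.330, 4.16 and 7.61 CPM (lowest, median, highest of 7) at 72 h, and 12.9, 19.0, 20.8 and 19.8 CPM at 7 d. The groups were more scattered than in Input: 3 of the 4 libraries of 24 h were above every naive library, as were 5 of the 6 of 48 h, 6 of the 7 of 72 h and 4 of the 4 of 7 d. The fitted log2 change was 3.87 ± 1.04 at 24 h and 5.44 ± 1.03 at 48 h, then 4.60 ± 0.99 after 72 h and 6.73 ± 1.09 in the last group, 7 d. The value of 2.02 ± 1.17 at 1 h rests on replicate 2, since it was 0.16 without it. Without the 6 libraries of mostly rRNA the value at 48 h was 5.07. In order of the mean, IP ran naive, 12 h, 1 h, 24 h, 72 h, 48 h, 7 d and Input ran 1 h, naive, 12 h, 24 h, 72 h, 48 h, 7 d, so the last 4 places were the same in both, and the only neighbours without overlap were 48 h and 7 d in IP, and 12 h and 24 h in Input. IP was below Input at 24 h (log2 difference -1.60 ± 0.68), 48 h (-1.35 ± 0.57) and 72 h (-1.37 ± 0.52) and nearer to it at 7 d (-0.17 ± 0.66). Fgf3 overlaps no other gene of the annotation, and the 1 deposited short interval inside its span, 12 bases from the span's end, moved with the gene: it had 2.77 ± 1.26 CPM at 7 d in IP and 0.103 ± 0.200 CPM in naive IP, and 2.97 ± 0.331 CPM at 7 d in Input and 0.0327 ± 0.0865 CPM in naive Input (SD).

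**Figure D2:**
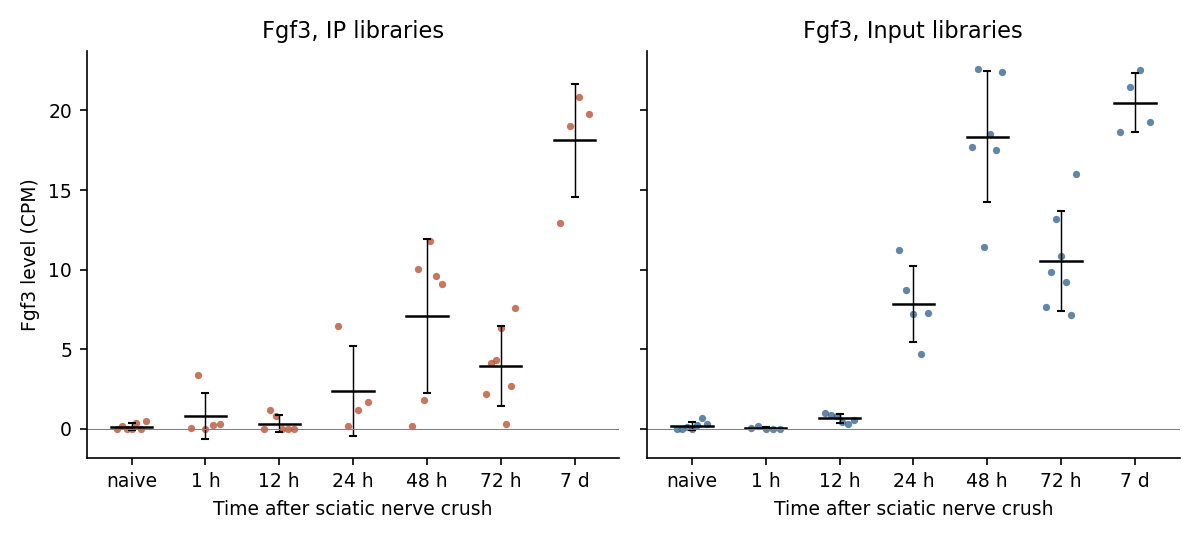
Fgf3 level in CPM (y axis) in each IP (left) and Input (right) library by time after crush (x axis), with the mean (bar) and SD (whisker). The naive libraries reach at most 0.525 CPM in IP and 0.696 CPM in Input, and the 7 d libraries lie between 12.9 and 22.6 CPM in both.

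Fgf7, a ligand of the epithelial form of Fgfr2 made by connective tissue cells, did not pass the test in Input at any time. Its Input means ran from 3.07 ± 0.521 CPM at 72 h (SD, n = 7) to 4.74 ± 1.43 CPM at 24 h (n = 5), with 3.82 ± 1.32 CPM in naive, and every neighbouring pair in that order overlapped. The log2 change lay between -0.29 ± 0.23 (72 h) and 0.33 ± 0.25 (24 h). In IP it had 1.34, 0.563, 0.700, 5.62 and 0.571 CPM at 1 h and 1.92, 5.21 and 7.00 CPM as the lowest, median and highest of 7 naive libraries, so 4 of 5 libraries at 1 h were below every naive one and the fifth was not. The summed level of the 7 fibroblast markers at 1 h was 780 to 1377 CPM in IP and 1444 to 2039 CPM in Input, and in naive ganglia 1637 to 3743 CPM in IP and 2156 to 4793 CPM in Input. All 7 fibroblast markers fell in Input at 1 h, 12 h and 24 h (median log2 change -1.07, -1.31 and -1.23), and its part in any FGF result was not tested. Fgf7 lies wholly within the span of Fam227b.

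Fgf1, Fgf9 and Fgf2 are the other secreted members. Fgf1 was lowest at 72 h: its 7 Input libraries had 173.5, 198.1 and 214.6 CPM (lowest, median, highest), against 270.2, 318.1 and 416.5 CPM in the 7 naive ones, with no overlap. That is a log2 change of -0.72 ± 0.12 (SE; edgeR adjusted p = 6.9e-06). At 1 h Fgf1 was higher, with 589.4, 400.7, 316.4, 511.9 and 358.8 CPM, a log2 change of 0.41 ± 0.13 (0.037) whose ranges overlap naive. At 7 d it had 320.8, 243.3, 240.3 and 275.9 CPM, below naive in the mean by a log2 change of -0.24 ± 0.14 (0.14) that did not pass. In order of the Input mean Fgf1 ran 72 h, 7 d, 48 h, naive, 24 h, 12 h, 1 h, and only 72 h stood clear of its neighbour. The Fgf1 span lies within that of Arhgap26. In IP Fgf1 had 99.8, 139.5 and 148.7 CPM at 72 h, against 90.9, 170.1 and 262.8 CPM in naive libraries, which overlap (log2 change -0.48 ± 0.18).

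Fgf9 was higher at 1 h and lower at 48 h and 72 h in Input. It had 30.1, 34.2, 37.4, 33.9 and 35.7 CPM at 1 h, all above the 7 naive libraries (25.0, 25.9 and 29.9 CPM as lowest, median and highest), a log2 change of 0.35 ± 0.11 (adjusted p = 0.031). It had 17.3, 20.1 and 23.7 CPM at 48 h and 15.7, 19.1 and 20.7 CPM at 72 h, all below naive, with log2 changes of -0.39 ± 0.10 (0.0024) and -0.52 ± 0.10 (6.8e-05). At 7 d it had 20.0, 19.6, 28.2 and 22.6 CPM, which overlap naive (-0.21 ± 0.11, adjusted p = 0.11). In IP it had 31.6, 34.7, 25.7 and 44.8 CPM at 7 d and 14.8, 22.4 and 33.9 CPM in naive libraries, a log2 change of 0.52 ± 0.28 in the other direction from Input. At 24 h IP library 2 had 67.3 CPM and the other three 27.7, 32.5 and 19.8 CPM. Fgf9 overlaps no other gene.

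Fgf2 was scarcely detected. Its Input means ran from 0.431 ± 0.219 CPM at 48 h (SD, n = 6) to 0.723 ± 0.216 CPM at 7 d (n = 4), with 0.579 ± 0.387 CPM in naive, and no time passed (log2 changes -0.39 ± 0.55 to 0.38 ± 0.59), so that only large changes could be seen at this depth. In IP single libraries reached 4.84 CPM at 12 h and 4.95 CPM at 72 h, against at most 1.40 CPM in naive ones, and the 72 h group also held a library at 0. The Fgf2 span overlaps that of Nudt6, known as its antisense partner, by 5125 bases, and without a stated strand setting reads of the pair cannot be told apart. Nudt6 had 7.43 ± 0.564 CPM at 7 d and 7.11 ± 2.92 CPM in naive Input (log2 change 0.09 ± 0.24), and it did not change by the F-test in IP (adjusted p = 0.53).

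Among the intracellular members Fgf11 rose and Fgf12 and Fgf13 fell. Fgf11 had 13.4, 12.1, 17.8, 17.6 and 14.9 CPM at 24 h in Input, 15.7, 16.9 and 21.2 CPM (lowest, median, highest) at 48 h, 13.4, 18.2 and 23.8 CPM at 72 h and 17.1, 14.6, 21.6 and 18.3 CPM at 7 d, against 6.16, 8.56 and 11.9 CPM in the 7 naive libraries. From 24 h on no Input library overlapped naive. The log2 change was 0.48 ± 0.16 at 1 h (edgeR adjusted p = 0.044) and 0.89 ± 0.16 at 24 h (5.8e-05). It was 1.11 ± 0.15 after 48 h (1.3e-07), 1.17 ± 0.15 after 72 h (2.3e-08) and 1.16 ± 0.16 after 7 d (9.2e-08), while 12 h (0.41 ± 0.15, 0.11) did not pass. Fgf3 and Fgf11 were the only members that passed as higher at 48 h, 72 h and 7 d. In IP Fgf11 had 18.8, 9.59, 29.1 and 8.95 CPM at 24 h and 26.8, 28.9, 17.7 and 0.406 CPM at 7 d, against 1.59, 6.54 and 9.10 CPM in naive libraries. The 7 d group thus held 3 libraries above every naive one and 1 below all of them, and the fitted log2 change of 1.68 ± 0.60 spans both. Leaving out the libraries of mostly rRNA gave 1.28 at 48 h, against 0.93 ± 0.56 with them.

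Fgf12 had 104.2, 138.2 and 165.8 CPM (lowest, median, highest) at 72 h in Input and 155.6, 208.7 and 293.4 CPM in naive libraries, a log2 change of -0.64 ± 0.13 (adjusted p = 1.1e-04) with a small overlap. At 7 d it had 171.1, 158.9, 145.9 and 145.2 CPM, a change of -0.46 ± 0.15 (0.0083) that is lost with glial marker content as a covariate (0.074). In IP at 7 d its gene count went the other way, with 112.5, 148.7, 122.6 and 161.2 CPM, against 56.2, 92.7 and 147.6 CPM in naive IP (0.40 ± 0.22). Those ranges overlap. At 72 h the IP change was -0.60 ± 0.19, beside -0.64 in Input. The 6 satellite glia markers summed to 5459 to 7160 CPM at 7 d and 2499 to 3471 CPM in naive Input, and their part in the 7 d value was not tested beyond that covariate.

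Fgf13 had 257.2, 286.2 and 350.8 CPM at 48 h and 201.9, 253.7 and 347.2 CPM at 72 h in Input, all below the 7 naive libraries (378.2, 411.6 and 576.5 CPM). The log2 changes were -0.62 ± 0.16 (adjusted p = 0.0026) and -0.72 ± 0.16 (4.8e-04). At 7 d it had 436.2, 362.3, 319.6 and 336.6 CPM and did not pass (-0.26 ± 0.18, 0.23). In IP it had 87.2, 138.6 and 196.0 CPM at 48 h, against 180.6, 224.7 and 381.4 CPM in naive IP, a change of -0.87 ± 0.25 with overlapping ranges. The spans of Fgf12 and Fgf13 also hold microRNA genes, non-coding transcripts and, for Fgf13, pseudogenes (3 and 5 annotated genes), which could share reads. Fgf13 lies on the X chromosome, and all 6 Input libraries at 48 h and 4 of 7 at 72 h had more Xist than Ddx3y counts, against 5 of 7 naive ones. With the Xist minus Ddx3y difference as a covariate the changes were -0.61 (adjusted p = 0.0048) at 48 h and -0.72 (0.00059) at 72 h. Neuronal markers moved too: of 10, 2 rose and 4 fell at 48 h and 2 rose and 5 fell at 72 h (median log2 change -0.05 and -0.30), and 7 of 8 macrophage markers rose at 72 h (median 1.23, summed 310.3 to 469.8 CPM at 72 h and 109.5 to 282.6 CPM in naive Input). Their part in the falls of Fgf1, Fgf9, Fgf12 and Fgf13 was not tested.

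**Figure D3:**
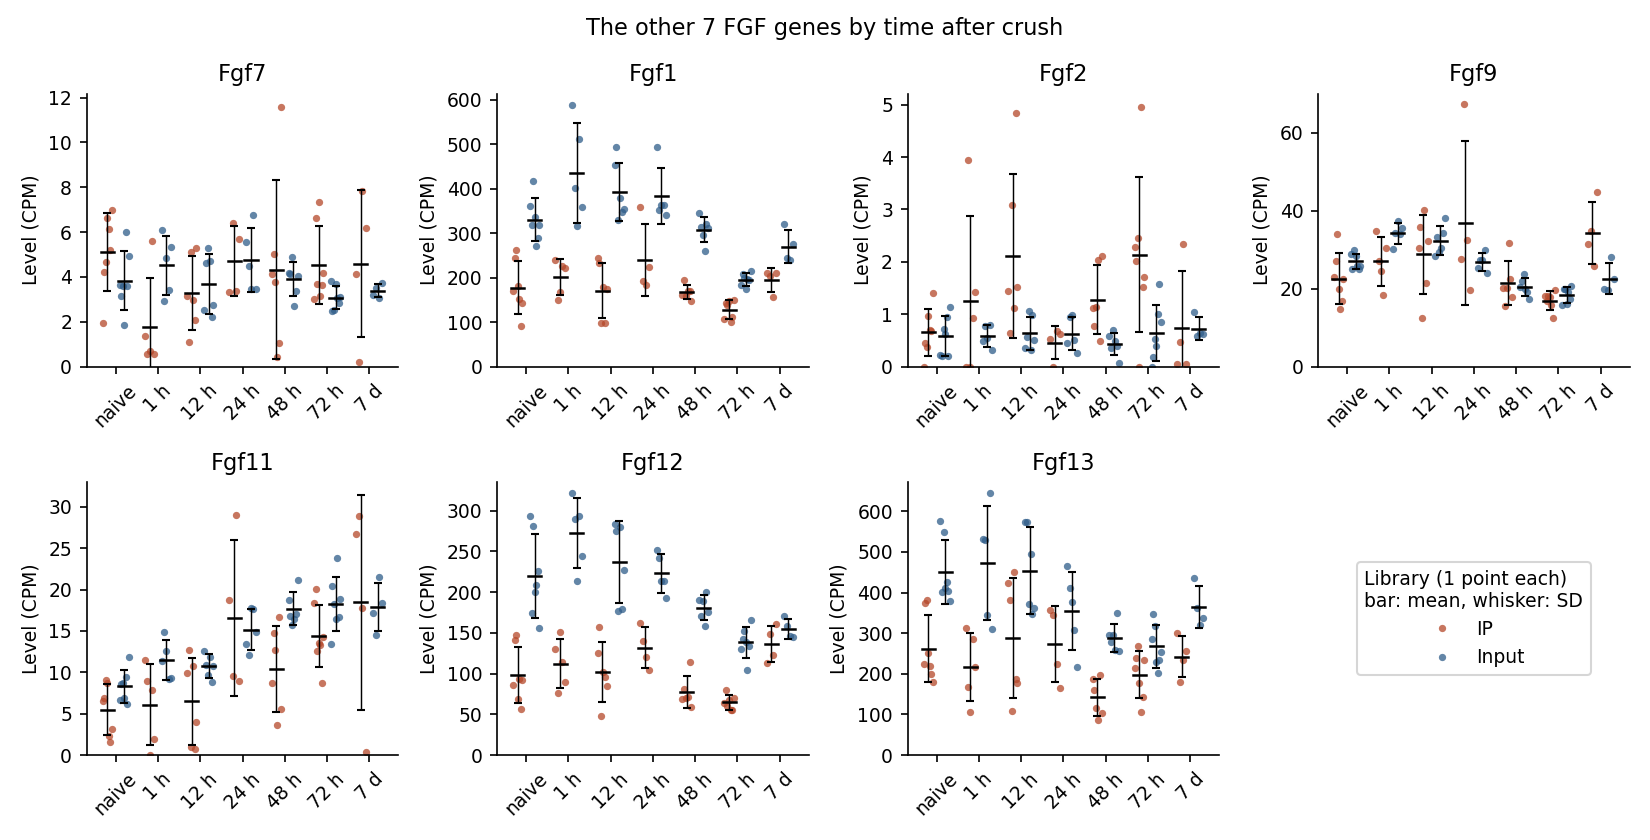
Level in CPM (y axis, 1 panel per gene) of the 7 genes other than Fgf3 in each IP and Input library by time after crush (x axis), with mean (bar) and SD (whisker, ending at 0 where it would pass it). Input libraries of Fgf11 at 24 h and later all lie above 12.0 CPM while naive ones end at 11.9 CPM, and Fgf13 Input libraries at 48 h and 72 h lie below 351 CPM while naive ones start at 378.2 CPM.

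Fgf1, Fgf12 and Fgf13 were lower in pulled-down RNA than in whole-ganglion RNA before injury. In naive ganglia Fgf12 had 97.9 ± 34.4 CPM in IP and 219.9 ± 51.5 CPM in Input (SD, n = 7 each), a log2 difference of -1.13 ± 0.17 (edgeR quasi-likelihood test on 79 libraries, adjusted p = 2.1e-07). Fgf1 had 177.5 ± 59.5 CPM in IP and 329.9 ± 48.3 CPM in Input (-0.86 ± 0.17, 2.7e-05), and Fgf13 had 261.3 ± 82.2 CPM in IP and 449.7 ± 79.03 CPM in Input (-0.75 ± 0.22, 0.0043). These were 3 of the 7 genes tested, all lower, where 18.3% of all genes were lower in IP. For Fgf1 and Fgf12 no naive IP library reached the lowest naive Input library. Fgf7 (0.46 ± 0.42, adjusted p = 0.39), Fgf2 (0.20 ± 0.78, 0.85), Fgf9 (-0.22 ± 0.18, 0.34) and Fgf11 (-0.54 ± 0.40, 0.26) did not pass. The direction of the 3 that passed was that of 6 of the 10 neuronal markers. Of the sodium channel genes named below, Scn1a (0.90 ± 0.16, adjusted p = 6.5e-06), Scn3a (2.09 ± 0.36, 3.1e-06), Scn9a (0.60 ± 0.13, 1.8e-04) and Scn10a (0.92 ± 0.17, 7.5e-06) were higher in naive IP. Scn11a did not pass (0.08 ± 0.18, 0.75), and the scaffold protein gene Mapk8ip2 was lower (-1.38 ± 0.22, 6.8e-07).

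Averaged over the 7 times, 5 of the 7 genes differed. Fgf12 (-0.96 ± 0.07, adjusted p = 2.8e-20), Fgf1 (-0.81 ± 0.07, 3.6e-17), Fgf13 (-0.69 ± 0.10, 1.1e-09) and Fgf11 (-0.39 ± 0.17, 0.033) were lower in IP, where 30% of all genes were, and Fgf2 was higher (0.83 ± 0.33, 0.023), where 40.3% were. Without the 6 libraries of mostly rRNA only 3 remained past the threshold, Fgf2 then having 0.63 (adjusted p = 0.10) and Fgf11 -0.26 (0.14). Fgf7 and Fgf9 were each at 0.06 (0.83 and 0.54). With RLE size factors, which moved the median of all genes to 0.34 over the 7 times, against 0.23 with TMM factors, Fgf11 no longer passed (-0.30, 0.086) and Fgf9 did (0.16, 0.042), while Fgf1, Fgf12 and Fgf13 kept their side. By time, Fgf12 differed by -1.27 ± 0.21 at 1 h and -1.19 ± 0.19 at 12 h, by -0.74 ± 0.22 at 24 h, by -1.17 ± 0.19 at 48 h and -1.06 ± 0.17 at 72 h, and by -0.18 ± 0.23 at 7 d. The 7 d value was the one nearest 0. For Fgf1 the difference ran from -1.18 ± 0.18 at 12 h to -0.46 ± 0.22 at 7 d, and for Fgf9 from -0.33 ± 0.22 at 1 h to 0.60 ± 0.24 at 7 d. Whether the difference between IP and Input changed with time was not tested for these genes.

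**Figure D4:**
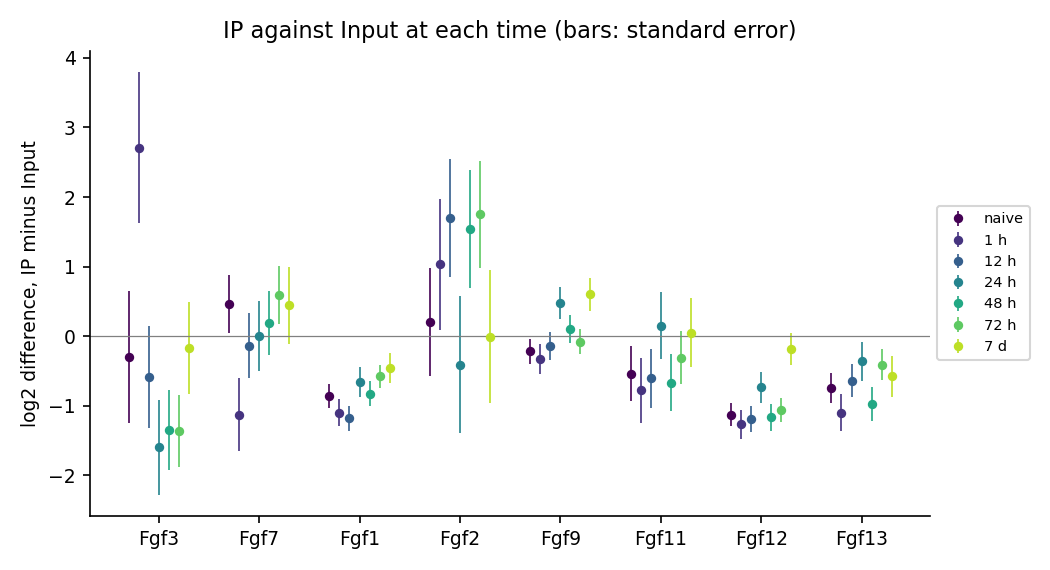
Log2 difference of IP minus Input (y axis, bars are standard errors) for each gene (x axis) and time (colour). Fgf1, Fgf12 and Fgf13 lie below 0 at every time, while Fgf12 at 7 d is at -0.18.

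The deposited table of short genomic intervals gave a second view of Fgf12 and Fgf13, whose spans of 595461 and 523434 bases hold 45 and 16 intervals. The basis on which these intervals were picked is not stated in any source at hand, and interval reads may also be counted in the gene. The 12 Fgf12 intervals with no repeat name summed to 54.9 ± 10.3 CPM in naive IP and 93.0 ± 5.41 CPM in naive Input (SD, n = 7 each), lower in IP as the gene count was. The 33 Fgf12 intervals named for a repeat element went the other way, with 15.04 ± 6.74 CPM in naive IP (lowest library 6.34) and 2.13 ± 0.877 CPM in naive Input (highest 3.48). At each of the 7 times every IP library exceeded every Input library of that time in this sum. At 7 d it was 3.24 ± 1.93 CPM in IP and 0.318 ± 0.124 CPM in Input. Repeat-named intervals of the whole table were also more abundant in IP. Their sum, scaled to raw gene reads without TMM factors, was 2859070 ± 1148299 in naive IP and 1393030 ± 662463 in naive Input. Such whole-table sums can exceed the gene total. They are not on the same scale as the CPM of the Fgf12, Fgf13 and Fgf9 intervals. Whether the Fgf12 intervals lie in exons or introns was not analysed here. The 3 unnamed Fgf13 intervals had 102.8 ± 12.0 CPM at 7 d and 266.5 ± 53.7 CPM in naive Input, while the Fgf13 gene count had 363.7 ± 51.4 CPM at 7 d and 449.7 ± 79.03 CPM in naive Input. All unnamed intervals of the table together, scaled without TMM factors, gave 139360 ± 10206 at 7 d and 251673 ± 43528 in naive Input. In IP at 7 d the unnamed Fgf12 intervals had 44.5 ± 10.5 CPM, below naive IP, while the gene count was above it. The 3 unnamed Fgf9 intervals had 2.33 ± 1.26 CPM at 7 d and 6.13 ± 2.13 CPM in naive IP, again unlike the gene count. All unnamed intervals of the table, scaled without TMM factors, gave 186496 ± 33972 at 7 d and 290557 ± 21789 in naive IP.

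**Figure D5:**
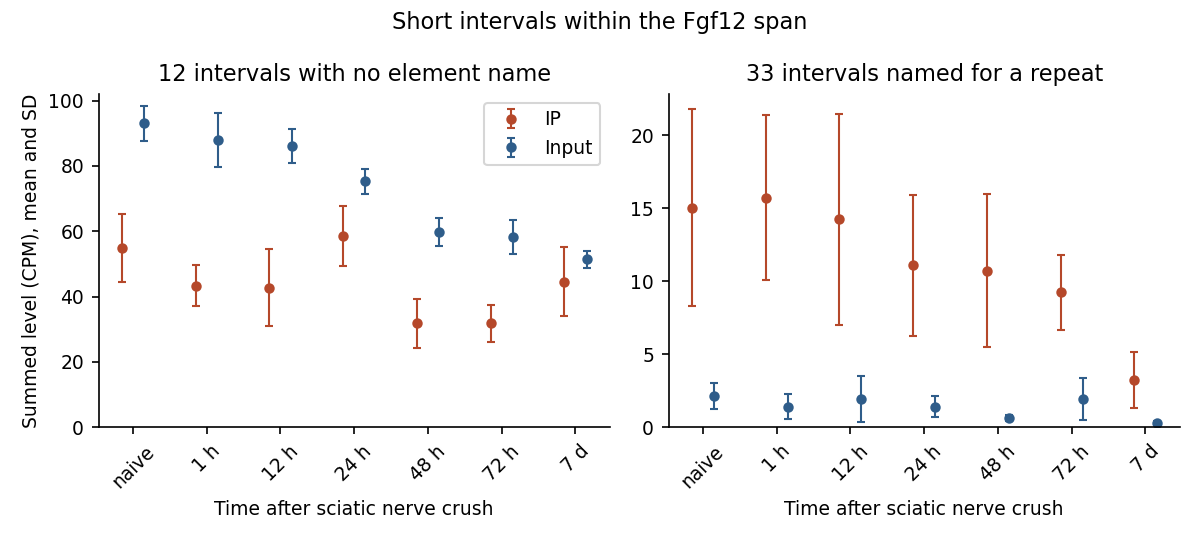
Summed level in CPM (y axis, mean and SD) of the 12 intervals with no element name (left) and the 33 named for a repeat (right) inside the Fgf12 span, by time after crush (x axis), IP beside Input. The unnamed sum is lower in IP than in Input at every time, and the repeat-named sum is higher in IP at every time.

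The genes whose level ran most like each member were found by Pearson correlation of log2 CPM over the 39 IP libraries, which share depth, rRNA share and injury time, so these are descriptions. For Fgf3 they were Them4 (r = 0.851 in IP, 0.81 over the 40 Input libraries), Phlda1 (0.842, 0.954), Scpep1 (0.841, 0.943), Nts, the neuropeptide neurotensin (0.819, 0.89), and Stac (0.819, 0.835). With the IP value first and the Input value after it, they were for Fgf1 Zc2hc1a (0.866 and 0.761), Faim2 (0.839 and 0.623) and Vamp1 (0.834 and 0.89), and for Fgf12 Map2k4 (0.837 and 0.722), Kcnip3 (0.836 and 0.72) and Rcan2 (0.833 and 0.866). For Fgf13 they were Atp1b1 (0.83 and 0.278), Syn2 (0.828 and 0.897) and Tusc5 (0.821 and 0.635), and for Fgf9 Rcan2 (0.819 and 0.62), Dync1i1 (0.767 and 0.583) and Ppp3r1 (0.766 and 0.424). For Fgf7 and Fgf2 all Input values lay between -0.156 and 0.13, and for Fgf11 between -0.09 and 0.718: for Fgf7 Snhg1 (0.737 in IP and -0.042 in Input), Nup43 (0.683 and 0.097) and Gpsm2 (0.631 and -0.156), for Fgf2 4931409K22Rik (0.657 and -0.047), Tespa1 (0.653 and -0.114) and 1700066B19Rik (0.629 and 0.13), and for Fgf11 1700088E04Rik (0.782 and 0.718), Hspa1b (0.779 and -0.09) and Pgk1 (0.775 and 0.325). Among the members themselves, Fgf3 and Fgf11 correlated at 0.36 in IP and 0.82 in Input, and Fgf1 and Fgf12 at 0.77 in IP and 0.87 in Input.

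The rest of the pathway was read from 51 genes in 5 lists written from general knowledge. In IP 16 of 46 tested changed over time by the F-test, where 22.1% of all genes did, and in Input 31 of 43 did, where 68.5% of all genes did, a share to set beside each Input F-test count below. Of the other FGF genes 0 of 10 passed in IP (unadjusted p under 0.05 for Fgf4, Fgf10, Fgf15 and Fgf18) and 7 of 9 in Input. Fgf23, a hormone of phosphate balance, had 1.01 ± 0.374 CPM at 7 d and 0.0930 ± 0.0947 CPM in naive Input (log2 change 3.30 ± 0.82, adjusted p = 7.7e-04). Like Fgf3, Fgf23 passed the filter through the later groups, with 9 counts in the 7 naive Input libraries and 98 in the 4 of 7 d. Its tests in Input are therefore not independent of that filter. Fgf15 was at 0 in all 7 naive Input libraries and had 0.402 ± 0.344 CPM at 48 h (adjusted p = 0.0019), and it also passed as higher at 24 h (0.0028), 72 h (0.0082) and 7 d (0.017). It could pass the filter only through groups after crush, and these calls rest on few counts, 41 in the 48 h group and 15 in that of 7 d. Fgf5 fell at 72 h (-0.86 ± 0.30, 0.029), Fgf14 at 24 h (-2.0 ± 0.55, 0.011), and Fgf16, at 0 in all 7 d Input libraries, had 0.403 ± 0.625 CPM in naive ones (adjusted p = 0.003). Fgf18 and Fgf22 passed the F-test alone, and Fgf10 and Fgf4 did not. In IP the 7 d level of Fgf18 was 17.0 ± 1.86 CPM, against 6.39 ± 2.81 CPM in naive IP (1.31 ± 0.49, adjusted p = 0.048), and Fgf20 was tested in IP alone and did not pass.

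Of the receptors, 1 of 7 changed in IP by the F-test, Fgfrl1, which lacks a kinase domain (adjusted p = 0.013), and no single time passed for any of the 7. In Input 3 of 5 did. Fgfr1 had 147.7 ± 10.6 CPM at 7 d (SD, n = 4) and 74.1 ± 8.05 CPM in naive Input (n = 7), a log2 change of 1.04 ± 0.11 (adjusted p = 7.3e-11), and it was lower than naive at 72 h (52.8 ± 7.25 CPM, -0.46 ± 0.09, 2.3e-04). In IP Fgfr1 had 103.7 ± 25.2 CPM at 7 d and 75.0 ± 22.7 CPM in naive libraries (0.38 ± 0.24). Fgfr2 was lower at 1 h (-1.49 ± 0.35, 0.012) and 12 h (-1.25 ± 0.33, 0.02), Fgfrl1 rose to 9.44 ± 2.15 CPM at 7 d, against 3.95 ± 1.31 CPM in naive Input (1.30 ± 0.29, 2.4e-04), and Fgfr3 and the co-receptor Kl did not pass. Fgfr4 and the co-receptor Klb were tested in IP alone and did not pass.

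Of the heparan sulphate carriers and other matrix partners, 6 of 8 passed the F-test in each fraction. Sdc1, a syndecan, had 117.6 ± 17.9 CPM at 7 d and 12.2 ± 5.31 CPM in naive IP (log2 change 3.18 ± 0.28, adjusted p = 2.6e-12), and 228.1 ± 9.44 CPM at 7 d and 16.4 ± 2.82 CPM in naive Input (3.84 ± 0.14, 2.8e-25). Gpc1, a glypican, rose at 7 d by 1.5 ± 0.22 in IP (1.7e-06) and 2.02 ± 0.12 in Input (4.2e-18). The 8 did not go one way: in IP at 7 d 2 were higher and 2 lower than naive, where 10.3% and 10.5% of all genes were. In Input at 7 d 5 were higher and 1 lower, where 28.3% and 25.1% of all genes were. In Input Sdc3 rose at 7 d (1.73 ± 0.16, 2.0e-12) and Sdc2 was lower at 72 h (-0.47 ± 0.12, 0.0031) and higher at 7 d (0.37 ± 0.14, 0.02). Among adaptors, feedback inhibitors and target genes, 2 of 13 passed in IP and 9 of 13 in Input. The targets did not go one way in Input at 7 d: Etv5 was higher (0.76 ± 0.09, 2.8e-09), Etv1 lower (-1.19 ± 0.13, 2.0e-10), and the inhibitor Spry4 lower (-0.52 ± 0.14, 0.0014), with 1 of 13 higher and 5 lower. Of all genes 28.3% were higher and 25.1% lower in that comparison. Spred2 was lower at 72 h (-0.44 ± 0.14, 0.021).

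Of the 8 partners of the intracellular members, which are sodium channel subunits and the scaffold protein Mapk8ip2, 7 passed the F-test in IP and 6 in Input. In Input 6 of the 8 fell at 48 h and 5 at 72 h, where 18.1% and 11.2% of all genes fell. Mapk8ip2 rose at 48 h (0.55 ± 0.13, edgeR adjusted p = 0.0012), where 18% of all genes rose. Of the intracellular members, Fgf13 passed as lower at both times and Fgf12 at 72 h but not at 48 h (-0.27 ± 0.13, 0.10). Fgf11 passed as higher at both. Scn10a changed by -1.07 ± 0.14 at 48 h (edgeR adjusted p = 3.8e-08), Scn11a by -1.62 ± 0.20 (2.8e-08), Scn1a by -1.16 ± 0.15 (3.3e-08) and Scn9a by -0.75 ± 0.12 (5.6e-06). At 7 d in Input 0 of the 8 were lower than naive (25.1% of all genes were) and 3 were higher (28.3%), Scn10a (0.52 ± 0.15, 0.0029), Mapk8ip2 (0.85 ± 0.15, 5.0e-06) and Scn3a (0.80 ± 0.35, 0.049). In IP at 7 d 4 of the 8 were lower, where 10.5% of all genes were: Scn10a (-1.07 ± 0.25, 0.0017), Scn1a (-0.98 ± 0.22, 0.0012), Scn11a (-0.72 ± 0.19, 0.0055) and Scn3a (-1.77 ± 0.50, 0.0087). Mapk8ip2 was higher there (1.5 ± 0.28, 1.1e-04), as 10.3% of all genes were. Values of Mapk8ip2 and Scn3a are given because they completed these counts, a choice made after they were seen. The difference between the fractions was not tested.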

How the data were processed

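The authors deposited read counts per RefSeq gene symbol and read counts per short genomic interval for 79 libraries. The libraries are SMART-Seq v4 cDNA tagged with Nextera XT, per the labels' protocols. The submitters' processing notes name bcl2fastq 2.17 and, with no version, STAR and HTSeq, with the builds mm10 and GRCm38. Strand and multi-mapping settings: not given in the sources used here; so overlapping and antisense genes may share reads. Of 24060 symbols, 27 turned into dates by a spreadsheet were left out (0.0346% to 0.2139% of counts). Among 192 pairs of libraries of 1 group none were duplicates (smallest chi-square per degree of freedom 9.14).

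Each fraction was fitted as 7 groups, and IP against Input as 14 groups, in edgeR 4.0.16 (R 4.3.3; TMM, filterByExpr, robust quasi-likelihood F-tests). P-values were Benjamini-Hochberg adjusted over all genes tested, with calls at 0.05. The fitting code was tested on simulated data. CPM uses TMM-scaled library sizes, and correlations use log2 CPM with a prior count of 2. Interval sums over the whole table were scaled to raw gene totals without TMM factors. No gene lengths were used, so levels are not compared between genes. Alternatives were RLE size factors, no filter, DESeq2 1.42.0, limma 3.58.1 voom, Rn45s and Lars2 left out, libraries over 50% rRNA left out, Xist minus Ddx3y and glial markers as covariates, a replicate block and leaving out single libraries.

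The genes, the pathway and marker lists and the tests were chosen with earlier results of these data known. Named genes are all 8 members, every other FGF gene and receptor that passed the filter, up to 4 genes of smallest F-test p from each other list, the 5 genes most correlated with Fgf3 and 3 with each other member, genes overlapping a member, and checks. Further FGF genes and Scn2a1 and Scn8a enter the counts alone, and 1 gene of a pathway list is not reported here.

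Same-numbered IP and Input libraries correlated in their deviations from group means between -0.103 and 0.206 (median 0.058, 8 of 39 over 0.1). The library of the same number was the best match in 19 of 39 cases. Counts of Xist and Ddx3y did not always match by number: naive replicate 1 had 0 and 562 in Input and 1382 and 10 in IP. More Xist than Ddx3y counts stood in 5 of 7 naive Input and 6 of 7 naive IP libraries. At 48 h that held for 6 of 6 in each fraction and at 12 h for 0 of 6 in each. The numbers were not taken as pairs, and whether they mark pairs was not tested. The p-values of IP against Input therefore treat the 79 libraries as unpaired.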

Additional observations from a re-analysis of the deposited data

Results flagged for a closer look

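Of 112 sets of 4 to 7 libraries (8 genes in 14 groups), 5 held a library far from the others by Dixon's criterion, or 4.5%, and chance flags about 1 in 20. Fgf3 in IP replicate 2 at 1 h had 3.38 CPM, with the other libraries between 0 and 0.285 CPM. Fgf7 in IP replicate 4 at 1 h had 5.615 CPM, with the others between 0.563 and 1.34 CPM. Fgf1 in Input replicate 1 at 24 h had 494.1 CPM, with the others between 341.3 and 363.7 CPM. Fgf1 in IP replicate 3 at 7 d had 155.8 CPM, with the others between 203.3 and 211.3 CPM. Fgf2 in Input replicate 1 at 7 d had 1.044 CPM, with the others between 0.577 and 0.648 CPM.

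The gene count of Fgf12 at 7 d moved in opposite directions in the 2 fractions, which its unnamed short intervals did not. All 4 IP libraries lay above the naive IP mean (136.25 CPM at 7 d and 97.9 CPM in naive IP), and all 4 Input libraries lay below the naive Input mean (155.28 CPM at 7 d and 219.9 CPM in naive Input). The difference was not tested.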

How the results depend on the processing

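Of the 6 counts of calls, 5 kept within 1.5 times of their value under each alternative run, and the fitted change of Fgf3 in IP at 72 h (log2 4.6) ran from 4.32 to 5.24 over all settings. The number of genes that differed between IP and Input over the 7 times was 5 and became 3 without the libraries of mostly rRNA, losing Fgf2 and Fgf11. With the replicate block, 19 of 48 Input comparisons passed, 13 pathway genes passed in IP in place of 16, and 4 genes differed over the 7 times, while the other 3 counts did not change; the cause was not tested. Single omissions left 16 to 20 Input comparisons. RLE size factors moved the median log2 difference of naive IP against Input to 0.40, against 0.26. The 1 h calls of Fgf1, Fgf9 and Fgf11 were lost with the sex or the glial covariate and without several single libraries (adjusted p up to 0.21, 0.096 and 0.15). That of Fgf11 was also lost with RLE size factors, with no filter and in limma voom. The 1 h call of Fgf9 was lost with no filter too, and that of Fgf1 with the replicate block. No direction of a called value reversed. Omissions for IP against Input were run over the 14 naive libraries, others were not run, and no Input library passed the 50% limit. Fgf3 in naive, 1 h and 12 h libraries and Fgf2 throughout are limited by depth. So are Fgf15, Fgf16 and Fgf23 in Input, which had 0, 30 and 9 counts in the 7 naive libraries.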
